A study of Mus musculus with 22 samples.

Results

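Imprinted genes are transcribed mainly from the copy inherited from only one parent, because a methylation mark set in the egg or the sperm silences the other copy or steers a nearby control region. They lie in clusters that hold protein-coding genes beside long non-coding RNAs, and many of them act on fetal growth, placenta and metabolism. Several are known in the islet, where neuronatin aids the processing of preproinsulin and *Grb10* encodes an adaptor that dampens insulin and insulin-like growth factor receptor signalling. A set of 40 imprinted genes was taken by symbol from general knowledge, but with earlier results of these data known, so it is not an independent choice. All 40 were found among the 24296 genes that both deposited tables hold. They fall into 17 clusters on 9 chromosomes, and 33 are annotated as protein-coding. In mouse, 21 of them are known to be expressed from the paternal copy and 11 from the maternal copy, and for the other 8 this holds in some tissues or transcripts. The reads were counted per gene and not per parental copy, and the mice were on a C57BL/6 background, so nothing here measures imprinting itself.

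RNA was sequenced from pools of 100 tdTomato+ endocrine cells, sorted from the pancreas of E14.5 embryos or of P9 pups. The groups were E14.5 control (6 libraries), E14.5 *Isl1CKO* (5), P9 control (5) and P9 *Isl1CKO* (6). In *Isl1CKO* mice both copies of *Isl1*, the gene for a LIM-homeodomain transcription factor, are floxed and are recombined by a *Neurod1-Cre* allele inherited from the father, and Cre also switches on the Ai14 tdTomato reporter by which cells of both genotypes were sorted. The records call the controls WT, while the study gives the E14.5 controls as *Isl1* f/+; *Neurod1-Cre*; Ai14, so they carry Cre and are heterozygous for the floxed copy, and names the P9 controls only as reporter controls. Animals were littermates of both sexes, and each library is described as a separate biological replicate. Sorting by tdTomato keeps every cell whose lineage has expressed *Neurod1*, so endocrine cell types are mixed in each pool. With 100 mixed cells per library, fewer cells of a type and less RNA per cell cannot be told apart.

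Libraries held 11299969 to 13580985 counts at E14.5 and 8477482 to 13435089 at P9. *Isl1* itself, counted over all its exons including any that the deletion leaves, lay at 1043 to 1385 CPM (counts scaled to a common library size) in E14.5 controls and at 732 to 951 in E14.5 *Isl1CKO*. At P9 it lay at 269 to 396 CPM in controls and at 335 to 934 in libraries labelled *Isl1CKO*, which overlap and are higher on average, so the gene total does not check the deletion at that age. Of 13 α cell marker genes 8 were lower and 2 higher in *Isl1CKO* at E14.5, and of 13 β cell marker genes 10 were lower at P9. E14.5 *Isl1CKO* libraries 3, 4 and 5 held more macrophage transcripts, with a mean log2(CPM + 1) of 2.46 to 3.16 over 10 marker genes, beside 0.77 to 1.38 in the other 8 E14.5 libraries. Results at that age are therefore also given without those 3 libraries.

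Promoter windows were sought for genes that the results turn on, and the reference used held none for *Peg10* or *Sgce*. Those of *Nnat*, *Grb10* and *Dlk1* are shown. Each runs from 250 bases before to 50 bases after a start annotated by RefSeq on GRCm38.p6, read 5′ to 3′ on the gene's own strand. Capitals mark TGCCGC or its reverse complement GCGGCA, a hexamer that the imprint-keeping protein ZFP57 binds when it is methylated. The windows were also searched on both strands for the homeodomain cores TAATG and TAATT, which these 4 windows do not hold.
*Nnat*, chr2:157559828-157560127, plus strand: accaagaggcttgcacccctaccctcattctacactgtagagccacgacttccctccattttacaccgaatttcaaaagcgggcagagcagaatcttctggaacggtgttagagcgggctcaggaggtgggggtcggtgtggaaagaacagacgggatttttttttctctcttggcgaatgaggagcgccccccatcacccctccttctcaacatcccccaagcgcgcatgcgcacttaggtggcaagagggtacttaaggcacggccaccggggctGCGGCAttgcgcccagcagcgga
*Grb10*, upstream start, chr11:12037371-12037670, minus strand: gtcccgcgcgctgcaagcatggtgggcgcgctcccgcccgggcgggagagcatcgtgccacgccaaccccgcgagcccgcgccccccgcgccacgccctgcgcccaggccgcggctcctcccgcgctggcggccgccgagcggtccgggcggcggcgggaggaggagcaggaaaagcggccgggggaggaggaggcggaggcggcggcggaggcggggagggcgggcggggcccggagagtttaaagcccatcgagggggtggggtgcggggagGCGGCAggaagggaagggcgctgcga
*Grb10*, downstream start, chr11:12027922-12028221, minus strand: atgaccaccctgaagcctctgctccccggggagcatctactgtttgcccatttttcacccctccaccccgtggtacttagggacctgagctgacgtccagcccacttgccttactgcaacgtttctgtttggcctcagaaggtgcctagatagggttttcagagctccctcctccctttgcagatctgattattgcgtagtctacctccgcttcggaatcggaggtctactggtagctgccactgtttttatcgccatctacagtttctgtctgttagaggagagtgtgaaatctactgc
*Dlk1*, chr12:109452573-109452872, plus strand: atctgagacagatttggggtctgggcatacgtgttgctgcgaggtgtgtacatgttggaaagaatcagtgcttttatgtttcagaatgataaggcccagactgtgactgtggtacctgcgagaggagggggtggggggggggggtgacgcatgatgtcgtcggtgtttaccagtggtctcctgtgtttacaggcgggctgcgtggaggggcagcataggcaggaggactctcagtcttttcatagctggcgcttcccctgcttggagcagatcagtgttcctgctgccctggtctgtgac
The hexamer occurs 1 time each in the *Nnat* window and at the upstream *Grb10* start, and not at the downstream *Grb10* start or in the *Dlk1* window. RefSeq gave 51 windows for 32 of the 40 genes. The hexamer is in 12 of the 51, from 11 genes, and in 11.6% of all 32851 promoter windows of the same length. TAATG is in 13 of the 51 (26.8% of all windows) and TAATT in 12 (27.0%). Overlapping windows are counted separately, as for *Mest* at 30737800 and 30737803, which both hold the hexamer and TAATG. Whether these shares differ from those of all windows was not tested. A match is a run of letters and not a measured site.

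At E14.5, 5 imprinted genes fell in *Isl1CKO* endocrine cells. They were *Nnat*, *Peg10*, *Dlk1*, *Ppp1r9a* and *Rian*, with *Nnat* 3.41-fold lower and the others 1.44-fold to 2.00-fold lower. Of the 40 genes, 36 had enough counts for the test, and *Dio3*, *Ascl2*, *Magel2* and *Peg12* did not. The 5 calls are 13.9% of the 36 imprinted genes tested, and over all 15960 genes tested 1.43% were called, 0.827% as lower and 0.602% as higher. No imprinted gene was called higher by edgeR. At an unadjusted p under 0.05 from edgeR, 2 were higher and 12 lower, beside 11.4% of all genes in either direction. DESeq2 called 1 higher and 9 lower. Over all genes DESeq2 called 298 of 26815 as higher and 364 as lower. The median log2 fold change was -0.19 over the 36 and -0.01 over all genes, and 28 of the 36 estimates lay below 0. Calls are adjusted p-values under 0.05 from edgeR's quasi-likelihood test over all genes. In sum, and as a share of raw totals, the 40 genes took 1.09% ± 0.0616 (SD, n = 6) of all counts in controls and 0.861% ± 0.0544 (SD, n = 5) in *Isl1CKO*. Much of this difference lay in *Nnat* (mean 1703 CPM in controls and 499 in *Isl1CKO*) and *Peg10* (1460 and 731 CPM). The sum is therefore not a measure of the whole set.

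*Nnat*, the gene for neuronatin, a small membrane protein of the endoplasmic reticulum, had the highest level per length of the 40 genes in E14.5 controls, at 697 ± 220 CPM per kilobase of exon (SD, n = 6, scaled over all 22 libraries). It is a paternally expressed gene that lies within an intron of *Blcap* on chromosome 2, from 157560078 to 157562522 of GRCm38 on the plus strand. Scaled within E14.5, its 6 control libraries ran from 1159 to 2515 CPM with a median of 1578. The 5 *Isl1CKO* libraries held 496, 429, 823, 272 and 475 CPM. All 5 lay below every control library. The means were 1703 ± 542 (SD, n = 6) and 499 ± 201 (SD, n = 5) CPM, a log2 fold change of -1.77 (standard error 0.259, edgeR adjusted p = 0.0023). Without the 3 libraries rich in macrophage transcripts it was -1.88 with an adjusted p of 0.025 from edgeR.

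*Blcap*, which encodes a small membrane protein and is known to be expressed mainly from the maternal copy in mouse brain, surrounds *Nnat* on the opposite strand. Its 6 control libraries ran from 94.1 to 108 CPM, and the 5 *Isl1CKO* libraries held 65.9, 79.3, 80.6, 90.5 and 59.8 CPM. The groups did not overlap, but the difference did not pass the test (log2 fold change -0.42, standard error 0.109, edgeR adjusted p = 0.089). In all, 4 imprinted genes lay below and 1 above every control library, while 2.49% of all genes tested were without overlap, 1.29% lower and 1.20% higher.

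*Peg10* and *Sgce*, both known to be paternally expressed, start 99 bases apart on chromosome 6 and run in opposite directions from one control region. Their values differed. *Peg10*, a gene of retrotransposon origin that mouse placenta needs, fell. Its control libraries ran from 963 to 1769 CPM with a median of 1480, and the *Isl1CKO* libraries held 756, 1052, 608, 602 and 635 CPM. One *Isl1CKO* library lay within the control range and the other 4 lay below it. The fitted level was 2.00-fold lower (standard error 0.166 on the log2 scale, edgeR adjusted p = 0.0069). *Sgce*, the gene for ε-sarcoglycan, was at 97.3 ± 19.4 CPM in controls and 89.3 ± 14.7 in *Isl1CKO* (log2 fold change -0.12, standard error 0.143, edgeR adjusted p = 0.83). Whether the effects on *Peg10* and *Sgce* differ from each other was not tested.

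The same cluster holds 2 maternally expressed genes farther along chromosome 6. *Ppp1r9a*, the gene for the actin-binding scaffold neurabin, ran from 108 to 197 CPM in controls, and the *Isl1CKO* libraries held 109, 64.5, 71.6, 97.6 and 80.8 CPM. The groups touch through 1 *Isl1CKO* library, and the log2 fold change was -0.79 (standard error 0.166, edgeR adjusted p = 0.031). This call was lost in 6 of the 11 fits that left out 1 library. *Asb4*, the gene for an ankyrin and SOCS box protein, ran from 103 to 219 CPM in controls and was at 92.3, 71.9, 32.6, 43.1 and 98.5 CPM in *Isl1CKO*. Its groups did not overlap, and it did not pass the test (log2 fold change -1.04, standard error 0.276, edgeR adjusted p = 0.091).

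In the *Dlk1*-*Dio3* cluster of chromosome 12 the growth regulator *Dlk1* fell, and so did the long non-coding RNA *Rian*. *Dlk1* encodes a membrane protein with epidermal growth factor repeats related to Notch ligands and is expressed from the paternal copy. Its control libraries ran from 319 to 455 CPM with a median of 361, and the *Isl1CKO* libraries held 188, 266, 216, 250 and 254 CPM. All 5 lay below every control library, with a log2 fold change of -0.65 (standard error 0.109, edgeR adjusted p = 0.0069). *Rian*, a maternally expressed host of small RNAs, ran from 364 to 586 CPM in controls and was at 359, 378, 354, 311 and 250 CPM in *Isl1CKO*. The groups overlap through 1 *Isl1CKO* library, and the log2 fold change was -0.53 (standard error 0.122, edgeR adjusted p = 0.049). The *Rian* call was lost in 10 of 11 fits that left out 1 library. *Meg3*, the maternally expressed long non-coding RNA at the head of the same transcript series, was at 1352 ± 144 CPM in controls and 1090 ± 98.3 in *Isl1CKO* and did not pass the test (edgeR adjusted p = 0.083). The other genes of the cluster that were tested, *Mirg*, *Rtl1* and *Begain*, did not pass either (adjusted p of 0.54 or more).

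Without E14.5 *Isl1CKO* libraries 3, 4 and 5, which leaves 2 *Isl1CKO* libraries, *Nnat* was the only imprinted gene called. Over all genes, 42 of 18031 tested were called in that fit, beside 228 of 15960 with all libraries. *Peg10* was then at a log2 fold change of -0.69 (edgeR adjusted p = 0.38), *Dlk1* at -0.70 (0.17), *Ppp1r9a* at -0.75 (0.45) and *Rian* at -0.36 (0.57). The mean log2(CPM + 1) of the 13 α cell genes was 7.62 to 7.85 in the E14.5 control libraries and 6.74 to 7.17 in *Isl1CKO*, and none of these genes was at 0 in any library. That of the 13 β cell genes was 7.09 to 8.27 in controls and 6.09 to 7.31 in *Isl1CKO*, that of the 12 endocrine progenitor genes 6.25 to 6.84 and 6.82 to 7.45, with 5 of 11 tested called higher, and that of the 9 hepatoblast genes 1.70 to 2.44 and 2.33 to 3.89. The part of these lists in the falls of the 5 imprinted genes was not tested.

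**Figure D1:**
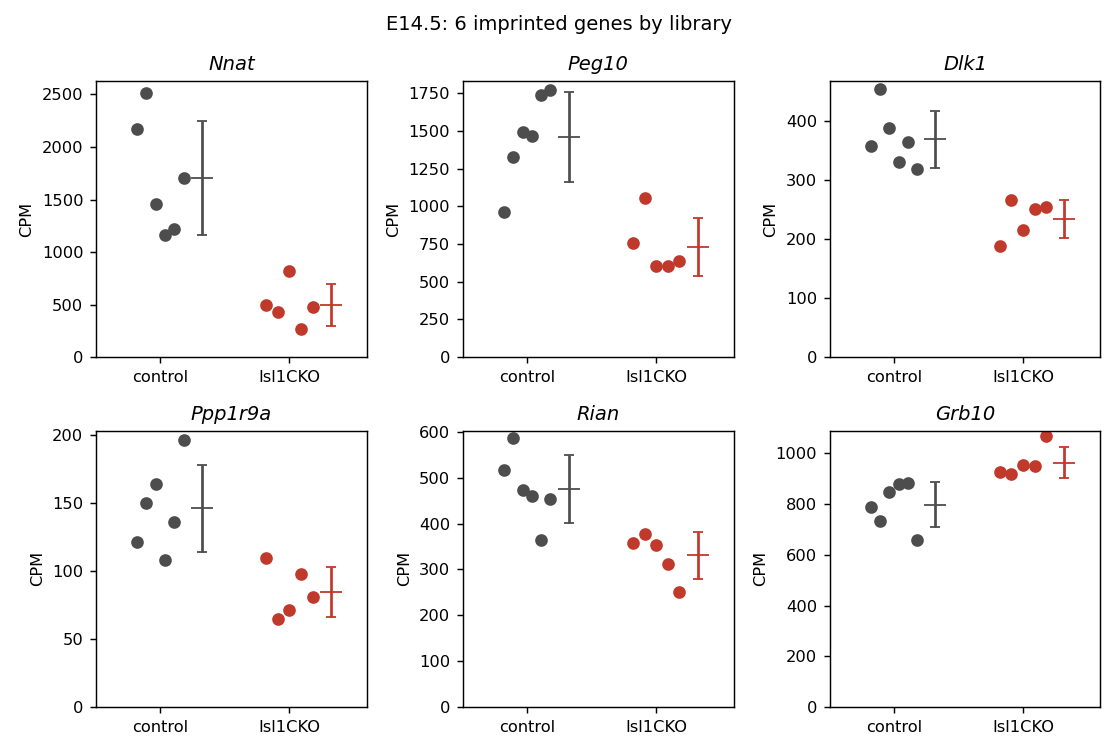
CPM in each E14.5 library for 6 imprinted genes, 6 control and 5 *Isl1CKO* points a panel, with the mean and SD beside them. *Nnat* and *Dlk1* lie lower in all 5 *Isl1CKO* libraries, *Peg10*, *Ppp1r9a* and *Rian* are lower with 1 library in the control range, and *Grb10* lies above every control library without passing the test.

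The other 31 imprinted genes tested at E14.5 did not pass, with log2 fold changes from -1.85 (*Phlda2*) to 1.28 (*H19*). *Phlda2*, a regulator of placental growth, and *H19*, a long non-coding RNA, had means of at most 5.15 CPM in either group. *Nap1l5*, a nucleosome assembly protein gene, was at 62.6 ± 17.2 CPM in controls and 116 ± 37.0 in *Isl1CKO* (edgeR adjusted p = 0.076). *Peg13*, a non-coding RNA gene inside an intron of *Trappc9*, was at 21.5 ± 4.81 and 12.2 ± 1.81 CPM (edgeR adjusted p = 0.069). *Peg3*, a paternally expressed zinc finger gene with the third highest level per length in E14.5 controls, was at 2520 ± 309 and 2656 ± 171 CPM, and its neighbours *Usp29* and *Zim1* had adjusted p-values of 0.77 and 0.90. These 3 genes of the *Peg3* cluster had log2 fold changes between 0.07 and 0.15.

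At P9, *Nnat* was again lower in *Isl1CKO* and *Grb10* was higher, and these were the only imprinted genes called. *Nnat* was 5.26-fold lower and *Grb10* 2.10-fold higher. The test took in 32 of the 40 genes, without *Dio3*, *Begain*, *Phlda2*, *Ascl2*, *H19*, *Igf2*, *Magel2* and *Peg12*. The 2 calls are 6.25% of the 32, and 4.81% of all 13964 genes tested were called, 2.66% as higher and 2.14% as lower, so this share is close to the background. The median log2 fold change was -0.12 over the 32 and 0.02 over all genes. If libraries are scaled by their total counts alone, 13 imprinted genes are called higher and 1 lower, while the median of all genes is then 0.68, so directions at P9 are given relative to the median gene. On that scale 3811 of all 13964 genes are called higher and 151 lower.

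The 5 P9 control libraries held *Nnat* at 185, 282, 168, 115 and 170 CPM. The 6 *Isl1CKO* libraries ran from 17.1 to 58.0 CPM with a median of 32.8. All 6 lay below every control library. The log2 fold change was -2.40 (standard error 0.325, edgeR adjusted p = 0.00048). It stayed between -2.60 and -2.19 in the 11 fits that left out 1 library, and *Nnat* was called in each of them. The effects on *Nnat* at the 2 ages did not pass the test of their difference (-0.61 on the log2 scale, edgeR adjusted p = 0.56). Per length, *Nnat* was first of the 40 genes in P9 controls (134 ± 44.8 CPM per kilobase, SD, n = 5, scaled over all 22 libraries) and sixth in P9 *Isl1CKO* (25.6 ± 12.7, n = 6). *Blcap* was at 60.3 ± 16.3 CPM in P9 controls and 32.1 ± 13.7 in *Isl1CKO*, scaled within P9, and did not pass the test (log2 fold change -0.91, edgeR adjusted p = 0.091). The mean log2(CPM + 1) of the 13 β cell genes was 9.80 to 10.5 in P9 control libraries and 6.95 to 8.25 in *Isl1CKO*, none of them at 0. That of the 13 α cell genes was 5.64 to 6.87 and 4.60 to 5.32, and that of 8 endothelial genes 0.31 to 0.66 and 0.72 to 1.04. The part of these lists in the fall of *Nnat* was not tested.

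*Grb10* lies on chromosome 11 from 11930508 to 12038683 on the minus strand and is known in mouse to be expressed from the maternal copy in most tissues and from the paternal copy in neurons, from different starts. The P9 control libraries held 67.9, 57.8, 43.0, 85.6 and 82.3 CPM. The *Isl1CKO* libraries ran from 91.4 to 182 CPM with a median of 140. All 6 lay above every control library, and the log2 fold change was 1.07 (standard error 0.221, edgeR adjusted p = 0.010). At E14.5 the 5 *Isl1CKO* libraries, at 918 to 1069 CPM, also lay above all 6 controls, at 658 to 882 CPM, but the log2 fold change of 0.27 did not pass the test (edgeR adjusted p = 0.13). The difference between the 2 ages did not pass its own test (edgeR adjusted p = 0.077). Reads were counted per gene, so the 2 starts shown above are not told apart. The mean log2(CPM + 1) of 12 endocrine progenitor genes was 3.84 to 4.37 in P9 control libraries and 5.57 to 6.13 in *Isl1CKO*, with 0 to 2 of the 12 at 0 in a library, and their part in the rise of *Grb10* was not tested.

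P9 *Isl1CKO* library 5 stood apart in several imprinted genes. It held the highest value of its 6 libraries for 13 of the 32 genes tested, while the other 5 libraries did so for 1 to 6 genes each. The same count over all genes was not made, so this is not shown to be particular to imprinted genes. *Slc38a4*, the gene for a neutral amino acid transporter, was at 174, 210, 177, 173 and 202 CPM in controls. In *Isl1CKO* it was at 79.4, 90.1, 76.4, 96.5 and 48.8 CPM in 5 libraries and at 328 CPM in library 5. With all libraries it did not pass the test (log2 fold change -0.64, standard error 0.374, edgeR adjusted p = 0.42), and without library 5 the log2 fold change was -1.26 (standard error 0.172, edgeR adjusted p = 0.00056). The non-coding RNA gene *Peg13* was split likewise, at 14.9, 30.9, 27.2, 23.5 and 30.7 CPM in controls, at 2.03 to 8.57 CPM in 5 *Isl1CKO* libraries and at 50.4 CPM in library 5. Without library 5 its log2 fold change was -2.25 (edgeR adjusted p = 0.0060), against -0.99 with it (adjusted p = 0.51). *Trappc9*, a vesicle trafficking gene that carries *Peg13* in an intron, was at 35.2, 22.1, 24.4, 44.0 and 25.4 CPM in controls and at 4.64 to 21.3 CPM in *Isl1CKO*. All 6 values lay below every control, and the adjusted p from edgeR was 0.072 with library 5 and 0.038 without it. Without library 5, 5 imprinted genes were called, *Nnat*, *Slc38a4*, *Peg13* and *Trappc9* as lower and *Grb10* as higher, while 5.02% of the 13584 genes tested were called. Library 5 was left out after its values were seen. The p-values without it, here and below, are therefore not an independent test of *Slc38a4*, *Peg13*, *Trappc9* or any other gene. This library had the lowest mean over the 13 β cell genes of its group, 6.95, beside 7.40 to 8.25 in the other 5, and the lowest over the 13 α cell genes, 4.60, beside 4.82 to 5.32. Its mean over the 9 hepatoblast genes, 1.94, was the highest of its group, beside 0.71 to 1.39. The part of these differences in its high values was not tested.

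**Figure D2:**
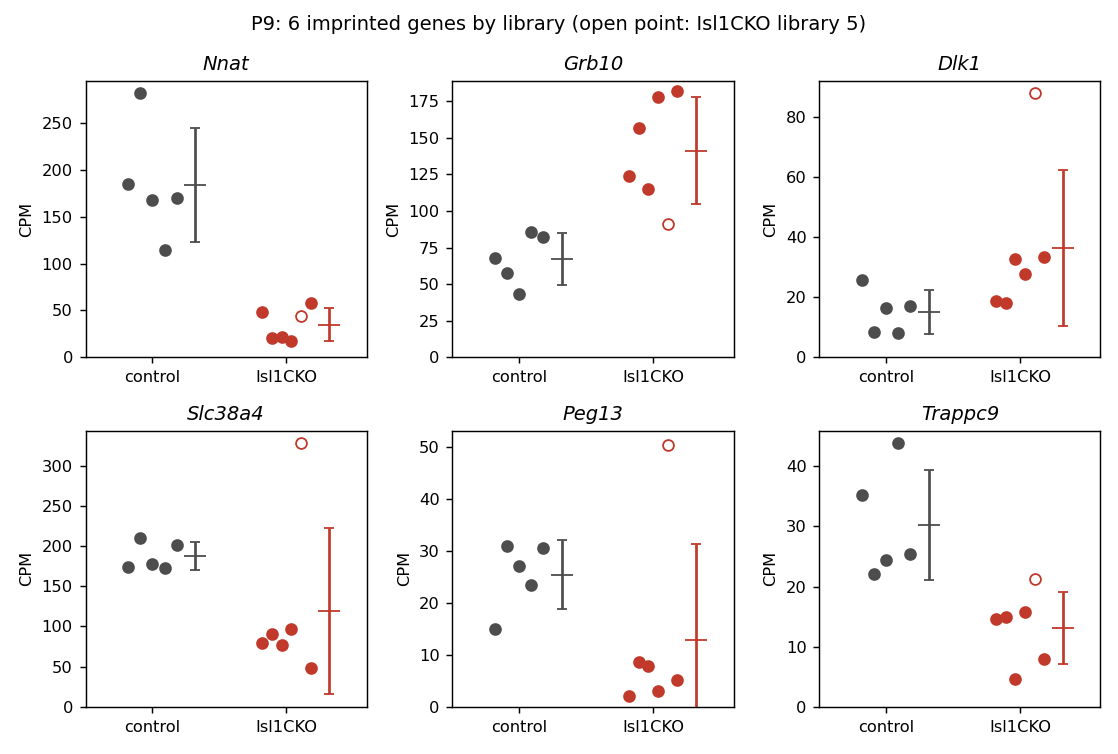
CPM in each P9 library for 6 imprinted genes, 5 control and 6 *Isl1CKO* points a panel, with the mean and SD beside them (bars are cut at 0). *Nnat* lies lower and *Grb10* higher in all 6 *Isl1CKO* libraries, and the open point, *Isl1CKO* library 5, is far above the other 5 for *Dlk1*, *Slc38a4* and *Peg13*.

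Without overlap between the groups were 3 imprinted genes at P9, *Nnat* and *Trappc9* below and *Grb10* above, and 5.38% of all genes tested, 2.57% lower and 2.81% higher. Among the 30 genes not called with all libraries, *Ndn*, the gene for the neuronal growth suppressor necdin, was at 44.4 ± 7.48 CPM in controls and 29.5 ± 5.66 in *Isl1CKO* (edgeR adjusted p = 0.11). *Nap1l5* was at 30.7 ± 11.1 and 56.7 ± 22.6 CPM (edgeR adjusted p = 0.12). *Meg3*, at 816 ± 82.3 and 680 ± 229 CPM, and *Peg3*, at 1071 ± 140 and 860 ± 126 CPM, which had the next highest levels per length after *Nnat* in P9 controls, did not pass (edgeR adjusted p = 0.56 and 0.21).

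**Figure D3:**
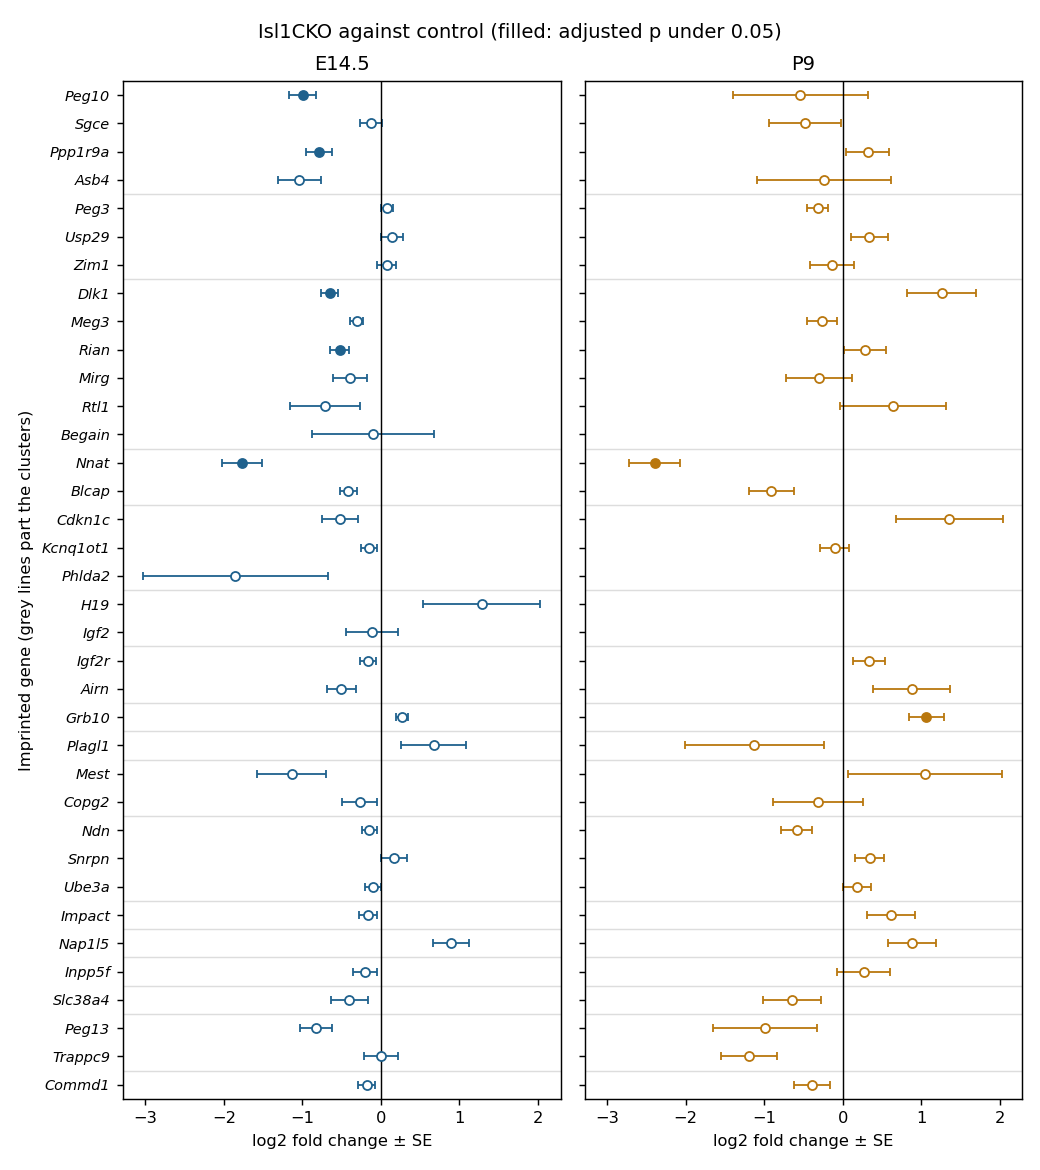
Log2 fold change of *Isl1CKO* against control with its standard error for each imprinted gene tested at E14.5 (left) and P9 (right), ordered by cluster. Filled points pass an adjusted p of 0.05 from edgeR, 5 at E14.5, all lower, and *Nnat* and *Grb10* at P9.

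The effect of *Isl1CKO* differed between the ages for *Dlk1* and *H19* by the interaction term of a fit over all 22 libraries, in which 36 of the 40 genes were tested and 2.08% of 17265 genes were called, 1.23% with a higher and 0.851% with a lower effect at P9. *Dlk1* was lower in *Isl1CKO* at E14.5, and at P9 the controls held 25.7, 8.36, 16.5, 8.12 and 17.0 CPM while the *Isl1CKO* libraries ran from 17.9 to 87.9 CPM with a median of 30.1. The P9 groups overlap, and the P9 difference alone did not pass its test (log2 fold change 1.26, standard error 0.437, edgeR adjusted p = 0.12). The difference of the 2 effects was 1.92 on the log2 scale (standard error 0.459, edgeR adjusted p = 0.027). Without P9 *Isl1CKO* library 5, the library at 87.9 CPM, it was 1.43 (standard error 0.331, edgeR adjusted p = 0.019). The call was lost in 3 of 22 fits that left out 1 library, without E14.5 *Isl1CKO* library 1 or 3 or P9 control library 2, with adjusted p-values up to 0.061.

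The *H19* term rests on few counts. *H19* had 0, 60, 30, 17, 30 and 16 counts in the E14.5 control libraries and 30, 35, 34, 155 and 61 in E14.5 *Isl1CKO*. At P9 the control libraries held 1, 46, 4, 2 and 0 counts, and the 6 *Isl1CKO* libraries held 1 count in all. The interaction was called (edgeR adjusted p = 0.028), and it was lost without P9 control library 2, which holds 46 of 53 counts, or without E14.5 *Isl1CKO* library 4, which holds 155 of 315. With total counts as the scale, 12 imprinted genes had a higher and 1 a lower effect at P9 than at E14.5, and the median of all genes moved to 0.68, whereas the other scalings gave 1 and 1. Total counts gave 3085 of all 17265 genes a higher and 90 a lower effect.

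From E14.5 to P9 most of the called genes among the 40 fell, in both genotypes. In controls 17 of the 36 genes tested were called, 16 lower at P9 and 1 higher, and over all 17265 genes 31.0% were called, 15.2% lower and 15.8% higher. In *Isl1CKO* 16 were called, 14 lower and 2 higher, beside 29.7% of all genes, 13.7% lower and 16.0% higher. The median log2 fold change of the 36 genes was -0.48 in controls and -0.52 in *Isl1CKO*, and that of all genes was -0.04 and 0.05. In controls 15 imprinted genes lay lower at P9 in every library and 1 higher, beside 20.9% of all genes (11.1% lower, 9.85% higher), and in *Isl1CKO* 11 lay lower, beside 19.3% of all genes (10.1% lower, 9.21% higher). On the scale over all 22 libraries the 40 genes summed to 8225 ± 312 (SD, n = 6) CPM in E14.5 controls and 4392 ± 399 (SD, n = 5) in P9 controls, and to 6384 ± 443 (SD, n = 5) and 3823 ± 519 (SD, n = 6) in *Isl1CKO*. Much of the fall in controls lay in *Peg10* (mean 1093 to 12.05 CPM), *Nnat* (1275 to 245), *Grb10* (598 to 89.8) and *Peg3* (1888 to 1429). As a share of raw totals the 40 genes took 0.257% ± 0.0218 (SD, n = 5) of counts in P9 controls and 0.354% ± 0.0702 (SD, n = 6) in P9 *Isl1CKO*, so the order of the genotypes at P9 depends on the scale. P9 pancreas was perfused with collagenase and E14.5 pancreas was not, so age and dissociation cannot be told apart. The cell type markers also moved with age. In controls, of 13 β cell genes 11 rose and 0 fell. Of 11 endocrine progenitor genes tested 1 rose and 8 fell, and of 13 α cell genes 3 rose and 5 fell. In *Isl1CKO* these were 9 and 1, 3 and 5, and 1 and 6. The part of these lists in the changes of imprinted genes with age was not tested.

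*Peg10* had the largest fitted fall of the called genes in controls. Scaled over all 22 libraries, it ran from 725 to 1326 CPM in the 6 E14.5 control libraries and from 2.07 to 16.1 CPM in the 5 P9 controls. That is a 90.8-fold lower level (log2 fold change -6.51, standard error 0.732, edgeR adjusted p = 3.7e-07). In *Isl1CKO* it ran from 450.5 to 791 CPM at E14.5 and from 0.69 to 31.2 at P9 (log2 fold change -6.06, edgeR adjusted p = 3.4e-07). Its cluster neighbours *Sgce*, *Ppp1r9a* and *Asb4* also fell in both genotypes, by 1.57, 1.78 and 2.94 on the log2 scale in controls. The call of *Ppp1r9a* in *Isl1CKO* (log2 fold change -0.67) was lost without E14.5 *Isl1CKO* library 1 or 4 or P9 *Isl1CKO* library 4, with adjusted p-values up to 0.070.

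*Dlk1* fell from 239 to 338 CPM in E14.5 controls to 10.8 to 34.4 CPM in P9 controls, a log2 fold change of -3.77 (standard error 0.365, edgeR adjusted p = 3.9e-08). In *Isl1CKO* the range moved from 140 to 200 CPM to 24.0 to 118 CPM, a log2 fold change of -1.85 (edgeR adjusted p = 0.00011). *Meg3* in the same cluster was not called with age in either genotype, at 1012 ± 103 and 1088 ± 112 CPM in E14.5 and P9 controls, and *Rian* fell in controls (log2 fold change -1.20, edgeR adjusted p = 0.00032) and was not called in *Isl1CKO* (-0.39, adjusted p = 0.20). The difference between the genotypes for *Rian* is the same interaction term, which was not called (edgeR adjusted p = 0.21). Without P9 *Isl1CKO* library 5, which was left out after its values were seen, *Rian* was called lower with age in *Isl1CKO* too (log2 fold change -0.65, edgeR adjusted p = 0.011). That fit called 30.2% of all 17153 genes tested.

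*Grb10* ran from 493 to 660 CPM in E14.5 controls and from 56.7 to 113 in P9 controls, and it fell by 2.74 on the log2 scale (edgeR adjusted p = 8.9e-11). In *Isl1CKO* it fell by 1.93 (edgeR adjusted p = 1.1e-08). *Nnat* fell by 2.38 in controls and by 2.99 in *Isl1CKO*. *Ndn*, *Peg3*, *Usp29* and *Zim1* were also called lower in both genotypes, *Peg3* by 0.40 in controls and 0.79 in *Isl1CKO*.

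*Igf2*, the fetal growth factor gene, was low at both ages, with 246 counts in E14.5 controls and 4 in P9 controls, a ratio of 22.5 (95% interval 8.66 to 83.1), and with 194 and 12 counts in *Isl1CKO*, a ratio of 11.1 (6.22 to 21.9). *H19* in *Isl1CKO* had 315 counts at E14.5 and 1 at P9, a ratio of 217 with an interval from 38.6 to 8580. These exact Clopper-Pearson intervals cover counting error only. Of the exon bases of *Igf2*, 64.5% are shared with other annotated genes, so its counts are uncertain. *Mest*, *Cdkn1c* (the gene for the cell cycle inhibitor p57) and *Impact* were called lower with age in controls only, and *Commd1* in *Isl1CKO* only, without a called interaction for any of them. Without P9 *Isl1CKO* library 5, *Cdkn1c* was called lower in *Isl1CKO* too (log2 fold change -1.34, edgeR adjusted p = 0.006), beside 30.2% of all genes in that fit. Library 5 held the highest *Cdkn1c* value of its group, 53.0 CPM over all 22 libraries, and was left out after its values were seen. The call of *Commd1* was lost without E14.5 *Isl1CKO* library 3 (edgeR adjusted p = 0.052). *Mest* shares 23.1% and *Cdkn1c* 30.7% of exon bases with genes on the other strand.

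*Slc38a4* rose with age in both genotypes. In controls it went from 38.1 to 72.7 CPM at E14.5 to 229 to 281 CPM at P9, a log2 fold change of 2.00 (standard error 0.347, edgeR adjusted p = 0.00011). In *Isl1CKO* the log2 fold change was 1.77, and 1.14 without P9 library 5 (edgeR adjusted p = 0.00059 and 5e-04). *Inpp5f*, an inositol phosphatase gene, rose in *Isl1CKO* (log2 fold change 1.00, edgeR adjusted p = 0.011). With total counts as the scale, which shifts the median of all genes to -1.21 in controls and -0.50 in *Isl1CKO*, 28 genes were lower and 0 higher in controls, *Slc38a4* no longer passed there (log2 fold change 0.82, edgeR adjusted p = 0.054) and *Inpp5f* no longer passed in *Isl1CKO*. On that scale 10030 of all 17265 genes were called lower and 605 higher in controls.

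**Figure D4:**
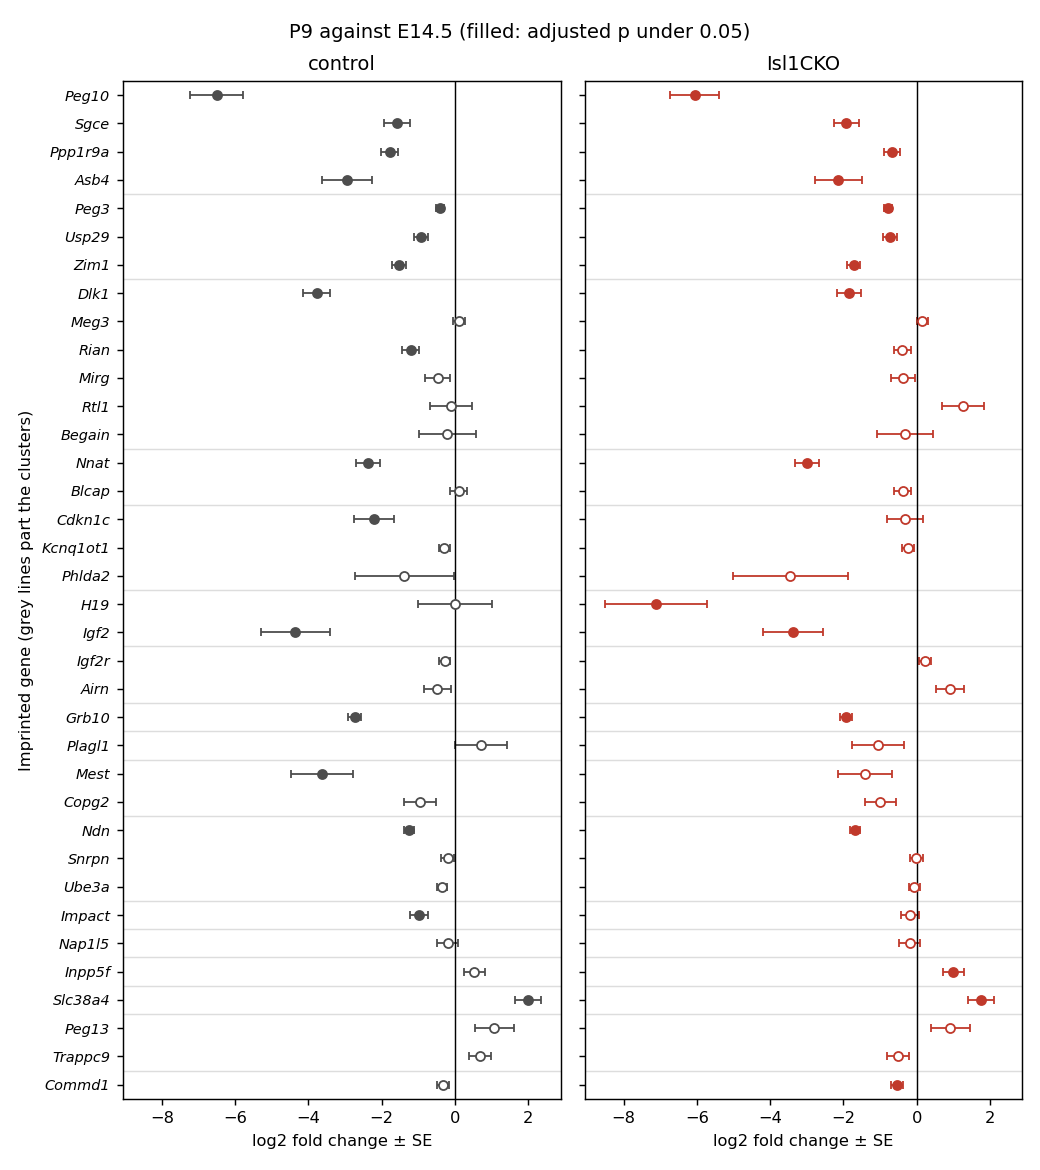
Log2 fold change of P9 against E14.5 with its standard error for each imprinted gene tested, in control (left) and *Isl1CKO* (right), on the scale over all 22 libraries. Most filled points (adjusted p under 0.05 from edgeR) lie below 0, 16 of 17 in control and 14 of 16 in *Isl1CKO*, with *Slc38a4* above 0 in both.

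Among 40 further genes reported as imprinted in mouse, 1 rose and 1 fell of 31 tested at E14.5, and 2 rose and 2 fell of 24 at P9. These are 6.45% and 16.7% of the genes tested, beside 1.43% and 4.81% of all genes. With age, 6 of 32 rose and 9 fell in controls and 8 rose and 10 fell in *Isl1CKO*, so in this list rises and falls were closer in number than among the 40 genes. *Gnas*, which encodes the stimulatory G protein α subunit and overlapping imprinted transcripts, rose at P9 from 39.6 ± 10.7 to 113 ± 9.86 CPM (log2 fold change 1.51, edgeR adjusted p = 0.00021), and its effect differed from that at E14.5 (interaction 1.59, edgeR adjusted p = 7.9e-05). *Rasgrf1*, a paternally expressed guanine nucleotide exchange factor gene, fell at both ages, by 0.97 at E14.5 and by 0.86 at P9 on the log2 scale (edgeR adjusted p = 0.043 and 0.023). *Pon2*, the gene for paraoxonase 2, rose and *Tssc4* fell at P9 (log2 fold change 1.08 and -1.46, edgeR adjusted p = 0.0050 and 0.0064). *Cd81*, a tetraspanin gene, rose at E14.5 (log2 fold change 0.28, edgeR adjusted p = 0.036).

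Of 22 genes whose proteins set or keep imprints, 0 of 21 tested were called at E14.5 by edgeR, where 5 were at an unadjusted p under 0.05 beside 11.4% of all genes. DESeq2 called 4, beside 662 of all 26815 genes, and limma-voom 1, beside 254 of 15960. The absence of calls at E14.5 thus depends on the tool. At P9 *Dnmt3b*, a de novo DNA methyltransferase gene, fell from 11.4 ± 3.15 to 2.90 ± 1.11 CPM (log2 fold change -1.98, edgeR adjusted p = 0.017), the only call among 20 tested, a share close to the 4.81% of all genes. With age, 8 of 21 were called in each genotype (38.1%), beside 31.0% and 29.7% of all genes. *Hells*, *Ctcf* and *Uhrf1*, which encode a chromatin remodeller, the CCCTC-binding insulator protein and a reader that guides maintenance methylation, rose in controls (log2 fold change 3.11, 0.84 and 2.98), and *Arid4b*, *Atrx*, *Trim28*, *Tet2* and *Daxx* fell. In *Isl1CKO*, *Hells*, *Ctcf*, *Uhrf1* and *Ezh2* rose and *Trim28*, *Zfp57*, *Ehmt2* and *Dnmt3a* fell. *Zfp57*, the gene for the protein that binds the methylated hexamer shown above, fell there from 2.48 ± 1.19 to 0.20 ± 0.13 CPM (log2 fold change -3.58, edgeR adjusted p = 0.0021).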

How the data were processed

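RNA from 100 sorted tdTomato+ cells per library was sequenced. Per the study's methods the authors trimmed reads with cutadapt 1.18, removed ribosomal reads with Bowtie 1.2.2, aligned the rest by STAR 2.7.0c (GRCm38) and assigned uniquely mapped reads to genes by Rsubread. Strand use is not given in the sources used here. The deposited values are raw counts in 1 table per age, with no gene under 10 counts in all. Symbols and positions came from GENCODE M21 and matched 27078 IDs of the 27124 in the E14.5 table and 27456 of the 27504 in the P9 table.

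Counts were tested with edgeR 4.0.16 (R 4.3.3; filterByExpr, TMM, glmQLFit, glmQLFTest), within each age for genotype and over all 22 libraries for age and interaction, with Benjamini-Hochberg adjustment over all genes tested. CPM are TMM-scaled within an age unless the scale over all 22 libraries is named. DESeq2 1.42.0, limma 3.58.1, other scalings, no filter and each library left out were alternatives. The code was tested on simulated data. Full statistics are given for genes called between genotypes or in the interaction and for the highest per length; *Asb4*, *Blcap*, *Sgce*, *Slc38a4*, *Peg13* and *Trappc9* were detailed after their values were seen. The members and lists were chosen with earlier results of these data known.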

Additional observations from a re-analysis of the deposited data

Results flagged for a closer look

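In 5 cases 1 library lay far from the others of its group by Dixon's test, over 26 groups of libraries tested, of which chance flags about 1 in 20. Only imprinted genes called between genotypes or in the interaction entered this test, so *Slc38a4* and *Peg13* did not. *Grb10* was at 1069 CPM in E14.5 *Isl1CKO* library 5 and at 918 to 953 in the other 4. *H19* was at 13.1 CPM in E14.5 *Isl1CKO* library 4 and at 2.65 to 4.40 in the other 4. *Dlk1* was at 87.9 CPM in P9 *Isl1CKO* library 5 and at 17.9 to 33.5 in the other 5. *Peg10* was at 23.3 CPM in P9 *Isl1CKO* library 2, beside 0.51 to 8.33 in the other 5, and at 1.56 CPM in P9 control library 3, beside 9.37 to 12.2 in the other 4.

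The effect of *Isl1CKO* differed between P9 and E14.5 by the interaction test for *Dlk1*, by 1.92 on the log2 scale (edgeR adjusted p = 0.027), and for *H19*, with a fitted difference of -7.13 (edgeR adjusted p = 0.028) that depends on the prior count, since 5 of the 6 P9 *Isl1CKO* libraries held no count.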

How the results depend on the processing

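At E14.5, where 5 imprinted genes were called, DESeq2 called 10 (1 higher, 9 lower). The fit without *Isl1CKO* libraries 3, 4 and 5 called 1. Fits without 1 library called 3 to 6, the lowest count without control library 2. The study's fold and level thresholds were also applied here, to the edgeR estimates. That left 1 call, *Nnat*. *Peg10*, at a log2 fold change of -0.999 from edgeR, fell just short of the fold threshold for lower genes. The paper itself reports *Peg10* as significantly reduced at this age. Over all genes DESeq2 called 662 of 26815. The fit without *Isl1CKO* libraries 3, 4 and 5 called 42 of 18031, and that without control library 2 called 154 of 15672. At P9, where 2 were called, DESeq2 called 4, scaling by total counts 14, and fits without 1 library 2 to 5, the highest without *Isl1CKO* library 5. Over all genes these were 1695 of 26726 by DESeq2, 3962 of 13964 by total counts and 682 of 13584 without *Isl1CKO* library 5. In the interaction DESeq2 called 4, total counts 13, and fits without 1 library 0 to 3, with 0 without P9 control library 2. All genes gave 967 of 24149 by DESeq2, 3175 of 17265 by total counts and 299 of 17842 without P9 control library 2. With age, total counts called 28 in controls and 27 in *Isl1CKO*, and fits without 1 library 17 to 18 and 15 to 19. Of all 17265 genes, total counts called 10635 in controls and 6719 in *Isl1CKO*. Replicate numbers did not pair the libraries (correlations of same-numbered deviations from -0.051 to 0.054), and a replicate block called 3 at E14.5, the same 2 as before at P9 and 0 in the interaction. Over all genes the block called 134 of 15960, 333 of 13964 and 130 of 17265. RLE factors, totals without hormone genes, no filter and, for the genotype comparisons, limma-voom kept every count within 1.5 times the main one, and no alternative reversed a called gene. The causes of these changes were not tested. With pools of 100 cells, members under about 5 CPM rest on few counts.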
